A study of Mus musculus with 8 samples.

Results

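The genes examined here encode 2 kinds of channel that carry subthreshold inward current in neurons, the hyperpolarization-activated HCN channels and the sodium leak channel NALCN. The 7 genes were chosen by name: Hcn2, Hcn3 and Hcn4, which encode HCN subunits, Pex5l, which encodes the HCN auxiliary subunit TRIP8b, and Nalcn, Unc79 and Unc80, which encode the leak channel and its large auxiliary proteins. Values were found for 6 of them among the 14353 genes of the deposited table. Hcn4 had no values there, so it was not analysed. RNA came from the ventral pallidum (VP) of mice homozygous for VGluT2-Cre and heterozygous for the tagged ribosomal protein gene Rpl22, which received no treatment. Both fractions carry these alleles, and no library analysed here came from mice without Cre. In these animals cells that express, or once expressed, vGluT2-Cre carry HA-tagged ribosomes, so the TRAP fraction is the mRNA bound to tagged ribosomes, and INPUT is mRNA of the same VP homogenate, labelled as all neurons and glia. Tissue of 38 mice, 15 male and 23 female, was combined into 4 pools of 7 to 11 animals (VP1.6, VP2.2, VP2.6, VP2.11), and a pool gave 1 library of each fraction, so n = 4 per fraction. The mice were 9 to 12 weeks old in VP1.6 and 10 to 16 weeks old in the other pools.

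HCN channels open when the membrane hyperpolarizes and carry a mixed sodium and potassium current, called Ih, which drives pacemaker potentials and sets input resistance. Cyclic AMP speeds and shifts their opening, with HCN2 and HCN4 far more sensitive to it than HCN3, and TRIP8b binds the channels, controls their delivery to the membrane and blunts the action of cyclic AMP. NALCN passes a voltage-insensitive sodium leak that holds neurons away from the potassium equilibrium potential. UNC80 and UNC79 are large scaffold proteins bound to NALCN, and the channel reaches its normal level and activity only with them.

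Transcripts of Nalcn and Unc80 were higher in TRAP than in INPUT in every pool, on average 1.91-fold and 1.95-fold, whereas those of Unc79 did not pass the test. Both calls were lost once a trend of the difference on exon length was taken out. Hcn2, Hcn3 and Pex5l did not pass the test either. Levels were deposited as log2 CPM, the log2 of reads per 1 M reads, and TRAP was compared with INPUT by limma at an adjusted p under 0.05 over 14249 genes. The comparison was fitted with the fraction alone and again with the pool as a block, and the p of the second fit is given as that with the block. With the fraction alone, 23.2% of all genes tested were called higher in TRAP and 24.8% lower. With the block the shares were 15.4% and 16.8%. Of the 6 genes with values, all of which passed the filter on low values, 2 were called higher (Nalcn and Unc80) and 0 lower in both fits, and the count lower was also 0 at an unadjusted p under 0.05. Their median log2 difference was 0.05, against -0.05 over all genes tested.

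The sequences just before the RefSeq starts are shown for the 4 genes that had one in the promoter set used, which held none for Hcn3 or Pex5l. Nalcn and Unc80 were called higher in TRAP and Unc79 and Hcn2 were not, and a link of the sequences to these calls was not tested. Each run holds the 250 bases before the start, 5′ to 3′ on the gene's own strand (GRCm38.p6, RefSeq), with each CpG in capitals. The Nalcn run lies at chr14:123627145-123627394 (minus strand), Unc80 at chr1:66467684-66467933, Unc79 at chr12:102948609-102948858 and Hcn2 at chr10:79716384-79716633 (plus strand).
Nalcn: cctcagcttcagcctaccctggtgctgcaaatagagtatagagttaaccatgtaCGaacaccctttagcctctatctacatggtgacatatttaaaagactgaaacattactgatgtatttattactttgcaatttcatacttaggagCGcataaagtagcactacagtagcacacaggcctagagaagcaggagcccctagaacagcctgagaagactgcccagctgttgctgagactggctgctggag
Unc80: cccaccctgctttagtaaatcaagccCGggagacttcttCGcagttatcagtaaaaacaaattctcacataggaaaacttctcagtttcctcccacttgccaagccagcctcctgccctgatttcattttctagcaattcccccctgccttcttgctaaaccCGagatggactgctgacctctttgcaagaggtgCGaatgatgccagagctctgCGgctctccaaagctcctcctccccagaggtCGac
Unc79: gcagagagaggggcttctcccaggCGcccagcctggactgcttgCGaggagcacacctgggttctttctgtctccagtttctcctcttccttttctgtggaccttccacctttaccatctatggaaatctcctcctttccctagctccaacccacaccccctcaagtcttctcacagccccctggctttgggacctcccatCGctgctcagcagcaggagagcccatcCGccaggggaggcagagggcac
Hcn2: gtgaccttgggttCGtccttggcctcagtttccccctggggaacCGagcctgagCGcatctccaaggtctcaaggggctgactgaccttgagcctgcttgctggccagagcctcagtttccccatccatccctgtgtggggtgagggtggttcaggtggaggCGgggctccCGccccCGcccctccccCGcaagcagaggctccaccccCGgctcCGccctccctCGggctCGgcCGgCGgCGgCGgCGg

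The Nalcn run held 2 CpG and 45.2% G or C, and 18.8% of 32851 mouse promoters of the same length held fewer CpG. Unc80 held 6 CpG, which is the median over all promoters, and Unc79 held 4. Hcn2 stood apart with 16 CpG, more than 74.6% of promoters, and 70.4% G or C. Both strands were searched for the letters of 5 short motifs. Hcn2 held the GC box (GGGCGG) at 3 places, and 32.7% of all promoters held it at least once. The other 3 runs had no GC box. None of the 4 runs held the TATA box (TATAAA), which was in 12.4% of promoters, or the E box (CACGTG), which was in 6.02%. None held the cyclic AMP response element (TGACGTCA), found in 1.55%, or its first 5 letters alone, found in 17.8% and overlapping the full element. A match of letters is a description and says nothing of binding.

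The fraction was checked with Slc17a6, which encodes vGluT2 and stood at 143 ± 13.6 CPM in TRAP and 25.9 ± 10.3 CPM in INPUT (SD, n = 4), a log2 difference of 2.55 (adjusted p = 8.8e-05, adjusted p = 7.3e-06 with the block). Slc17a7, the other excitatory neuron marker listed, was also called higher in both fits (1.45, limma, adjusted p = 0.00029, adjusted p = 0.00062 with the block). In bulk RNA fewer cells of a type and less RNA per cell cannot be told apart. The 5 striatal neuron markers (Drd1, Drd2, Ppp1r1b, Adora2a and Penk) were all lower in TRAP, with a summed level of 292 to 478 CPM against 796 to 1230 CPM in INPUT. The summed levels in TRAP and INPUT were 900 to 1630 CPM and 3510 to 3810 CPM for the 5 oligodendrocyte markers, 150 to 253 CPM and 343 to 502 CPM for the 5 astrocyte markers, and 23.7 to 31.8 CPM and 78.8 to 126 CPM for the 5 microglia markers. With the fraction alone 4, 4 and 5 of these were called lower, and with the block 4, 4 and 3. Markers of GABA neurons (Slc32a1, Gad1, Gad2) summed to 918 to 1570 CPM in TRAP and 584 to 1390 CPM in INPUT, with only Slc32a1 called lower (log2 difference -1.26, limma, adjusted p = 0.0055 with the block). Those of cholinergic neurons (Chat, Slc18a3, Slc5a7) summed to 87.8 to 137 CPM and 39.4 to 84.1 CPM but differed in direction. Slc18a3 was called lower in both fits (log2 difference -1.75, limma, adjusted p = 0.0086, adjusted p = 0.013 with the block), and Chat was called higher with the fraction alone (0.70, adjusted p = 0.034, adjusted p = 0.066 with the block). Endothelial markers with values summed to 5.60 to 28.9 CPM in TRAP and 1.46 to 5.82 CPM in INPUT. Flt1 was called higher in both fits (log2 difference 2.37, limma, adjusted p = 0.008, adjusted p = 0.0047 with the block), and Pecam1 was not called (0.59). Oligodendrocyte precursor markers summed to 18.4 to 38.0 CPM in TRAP and 8.35 to 22.5 CPM in INPUT. Cspg4 was called higher in both fits (1.98, limma, adjusted p = 0.0014, adjusted p = 0.00088 with the block), and Pdgfra was not called (-0.28). The part of these cell types in the results for the channel genes was not tested.

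Nalcn encodes the pore of the leak channel (chr14:123276634-123627144, minus strand, GRCm38; exons of 14.7 kb in all). Its level was 5.70, 6.14, 5.67 and 6.18 log2 CPM in TRAP (pools in the order VP1.6, VP2.2, VP2.6, VP2.11, here and in all lists of 4 values) and 5.22, 4.27, 5.28 and 5.17 log2 CPM in INPUT. TRAP was above INPUT in every pool, and INPUT of VP2.2 was the lowest of the 8 libraries. On the linear scale the means were 61.4 ± 11.7 CPM in TRAP and 32.9 ± 9.09 CPM in INPUT (SD, n = 4), or 1.91-fold by the log2 means. The log2 difference was 0.94 (95% interval 0.42 to 1.45, adjusted p = 0.008 with limma, adjusted p = 0.014 with the block) and ran from 0.39 to 1.87 over the 4 pools. Without VP2.2 it was 0.63, still past the threshold with limma (adjusted p = 0.015, adjusted p = 0.043 with the block), and with array weights 0.56 (adjusted p = 0.0071).

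Unc80 (chr1:66468367-66699148, plus strand; exons of 14.4 kb in all) encodes the scaffold that links UNC79 to NALCN, and was the most abundant of the 6 genes per kb of exon. Its level was 6.93, 7.29, 6.84 and 7.16 log2 CPM in TRAP and 6.34, 5.33, 6.41 and 6.29 log2 CPM in INPUT, in the same order of pools. INPUT of VP2.2 was again the lowest library. The means were 134 ± 19.5 CPM in TRAP and 71.1 ± 20.8 CPM in INPUT, or 1.95-fold by the log2 means. The log2 difference was 0.96 (95% interval 0.45 to 1.48, adjusted p = 0.0066 with limma, adjusted p = 0.011 with the block) and was positive in 4 of 4 pools, from 0.43 to 1.96. Without VP2.2 it was 0.63 (limma, adjusted p = 0.0038, adjusted p = 0.024 with the block), and with array weights 0.62 (adjusted p = 0.0039).

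Unc79 (chr12:102948859-103184065, plus strand; exons of 14.3 kb in all) encodes the other scaffold. It stood at 4.48, 4.65, 3.97 and 4.75 log2 CPM in TRAP and at 4.25, 4.00, 4.62 and 4.26 log2 CPM in INPUT. The fractions overlapped, with VP2.6 lower in TRAP and the other 3 pools higher. The means were 22.5 ± 4.91 CPM and 19.7 ± 3.60 CPM, and the log2 difference was 0.18 (95% interval -0.27 to 0.63, adjusted p = 0.49 with limma, adjusted p = 0.65 with the block). With the block the interval was -0.40 to 0.76, which overlaps those of Nalcn (0.37 to 1.50) and Unc80 (0.41 to 1.51). Without VP2.2 the log2 difference of Unc79 was 0.02 (limma, adjusted p = 0.94, adjusted p = 0.96 with the block), against 0.63 for Nalcn and Unc80.

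These 3 genes are among the longest measured, and the log2 difference rose with exon length over the whole table. In the tenth of genes with the longest exons (9862 bases and more), which holds Nalcn, Unc79 and Unc80, the median log2 difference was 0.49, and 45.8% of genes were called higher with the fraction alone and 34% with the block. Nalcn and Unc80 lay above that median and Unc79 below it. With the trend on exon length taken out, the log2 difference of Nalcn was 0.42 (limma, adjusted p = 0.18, adjusted p = 0.28 with the block) and that of Unc80 was 0.45 (adjusted p = 0.14, adjusted p = 0.22 with the block), so that neither call remained. That of Unc79 turned to -0.33 (limma, adjusted p = 0.22, adjusted p = 0.42 with the block).

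**Figure D1:**
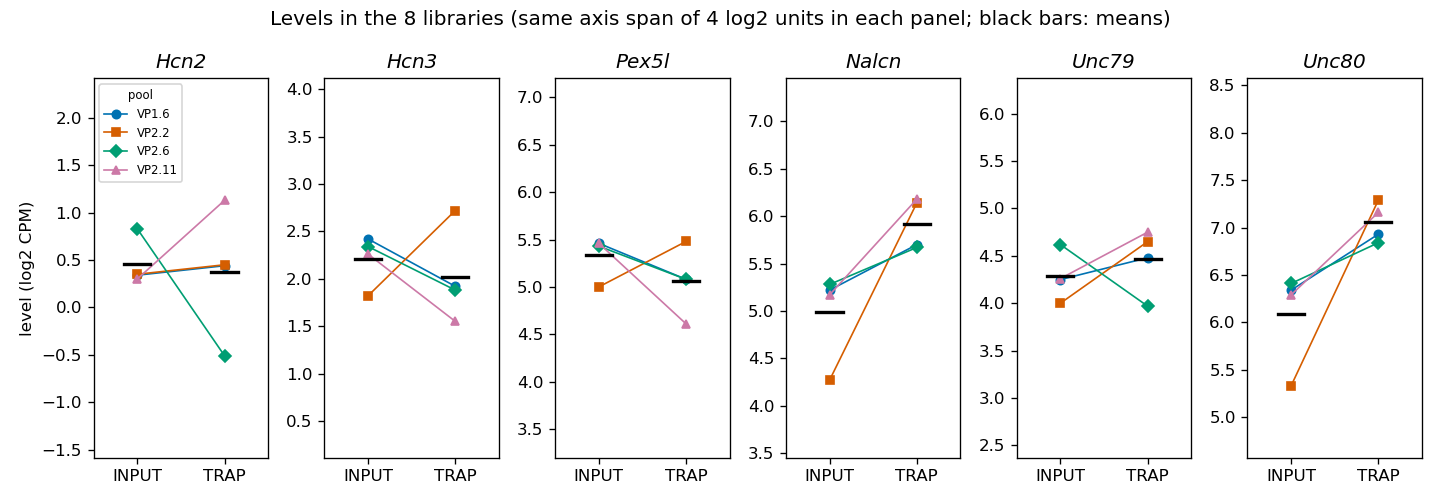
Levels in log2 CPM (vertical axis, a span of 4 log2 units in every panel) of the 6 channel genes in INPUT and TRAP, with one line per pool and black bars for the means of 4 libraries. TRAP lies above INPUT in all 4 pools for Nalcn and Unc80, and the pools differ in direction for the other genes.

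The ratio of 2 genes within a library does not depend on how the library was scaled, so the parts of the leak channel complex were also compared with each other. There were 6 ratios in all. Unc80 to Nalcn was 1.23, 1.16, 1.17 and 0.98 on the log2 scale in TRAP and 1.12, 1.06, 1.13 and 1.12 in INPUT. The means were 1.13 ± 0.11 and 1.11 ± 0.03 (SD, n = 4), and the log2 ratio differed between fractions by 0.03 (exact two-sided permutation p = 0.63), with pool differences from -0.14 to 0.11. The small spread held in INPUT of VP2.2 too, where both genes were at their lowest.

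Unc79 was lower relative to Nalcn in TRAP than in INPUT in all 4 pools. The log2 ratio was -1.22, -1.49, -1.69 and -1.43 in TRAP and -0.97, -0.27, -0.65 and -0.91 in INPUT, so the fractions did not overlap. It differed by -0.76 (exact two-sided permutation p = 0.029, the smallest that 4 against 4 libraries can give). Unc80 to Unc79 differed by 0.78 the other way, with log2 means of 2.59 ± 0.21 in TRAP and 1.81 ± 0.35 in INPUT and the same exact p of 0.029. Adjusted over the 6 ratios these p-values were 0.057, which misses the threshold of 0.05. With sign flips within the 4 pools the smallest possible p is 0.125, which both reached. The 3 genes have exons of nearly the same total length (14.3 to 14.7 kb), but their longest annotated transcripts differ (7122 bases for Nalcn, 8874 for Unc79 and 13613 for Unc80), and the ratios were not corrected for length.

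Per kb of exon, Unc80 made up 61.9 ± 1.85% of the sum of the 3 genes in TRAP and 57.2 ± 2.69% in INPUT, Nalcn 27.7 ± 1.38% and 26.0 ± 0.734%, and Unc79 10.4 ± 1.25% and 16.7 ± 3.39% (SD, n = 4). The share of Unc79 was 11.6, 10.1, 8.82 and 11.3% in TRAP and 14.1, 21.5, 16.9 and 14.6% in INPUT, lower in TRAP in every pool. These shares depend on the length used. Per kb of the longest annotated transcript the TRAP shares were 47.0% for Unc80, 40.9% for Nalcn and 12.0% for Unc79, in the same order. By level per kb in TRAP, Unc80 (9.29 ± 1.35 CPM per kb) stood at percentile 70.4 of the genes tested, Nalcn (4.17 ± 0.793 CPM per kb) at 52.9 and Unc79 (1.58 ± 0.344 CPM per kb) at 29.7.

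**Figure D2:**
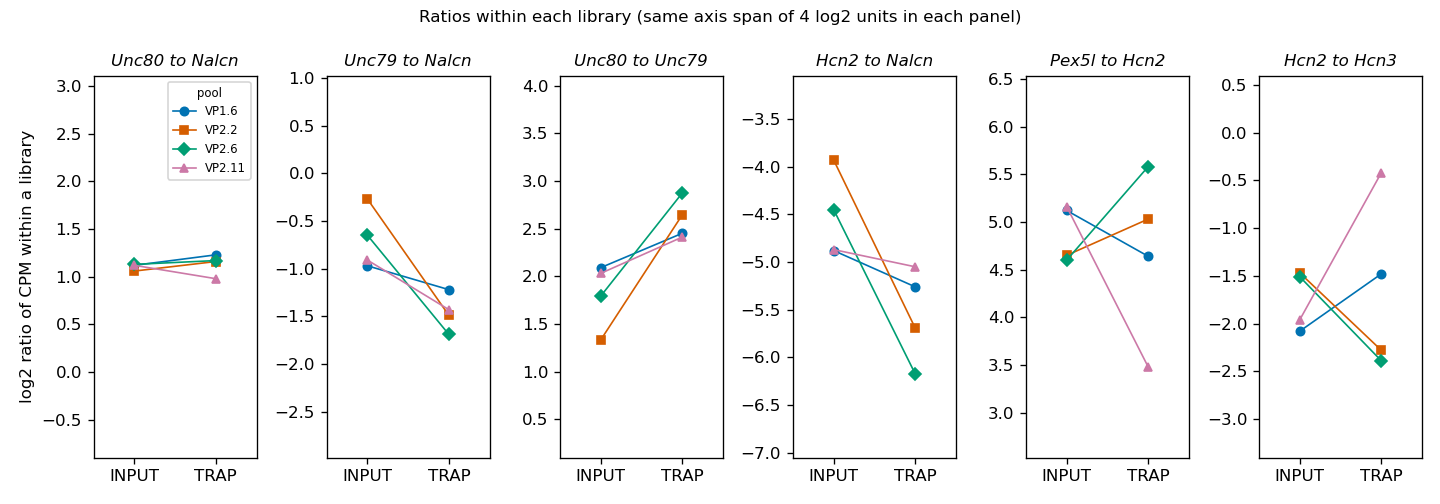
Log2 ratios of CPM within each library (vertical axis, a span of 4 log2 units in every panel) in INPUT and TRAP, with one line per pool. Unc80 to Nalcn lies between 0.98 and 1.23 in all 8 libraries, Unc79 to Nalcn and Hcn2 to Nalcn are lower in TRAP in all 4 pools, and Hcn2 to Hcn3 is higher in 2 and lower in 2.

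Hcn2 encodes a cyclic AMP-sensitive HCN subunit common in the brain (chr10:79716634-79736108, plus strand; exons of 3.2 kb in all). Its level was 0.44, 0.45, -0.51 and 1.13 log2 CPM in TRAP and 0.34, 0.35, 0.83 and 0.30 log2 CPM in INPUT. The TRAP libraries spanned the whole INPUT range, with VP2.6 the lowest and VP2.11 the highest. The means were 1.4 ± 0.608 CPM in TRAP and 1.39 ± 0.258 CPM in INPUT, and the log2 difference was -0.08 (95% interval -0.97 to 0.82, adjusted p = 0.89 with limma, adjusted p = 0.94 with the block). The blocked interval, -1.42 to 1.27, leaves room for a change of over 1 log2 unit either way. Where the depth could be found from steps of whole reads, Hcn2 rested on about 17 reads in TRAP and 49 in INPUT of VP2.2, and on about 8.6 and 43 in VP2.6. Without VP2.6 the log2 difference was 0.34 (limma, adjusted p = 0.55, adjusted p = 0.80 with the block), and with quantile normalization 0.65 (adjusted p = 0.18), so its direction is not set by these data.

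Hcn3 (chr3:89146074-89160196, minus strand; exons of 4.2 kb in all) encodes a subunit that responds weakly to cyclic AMP. It stood at 1.92, 2.72, 1.88 and 1.55 log2 CPM in TRAP and at 2.42, 1.82, 2.34 and 2.26 log2 CPM in INPUT. VP2.2 was higher in TRAP, by 0.91, and the other 3 pools were lower, by log2 differences of -0.71 to -0.46. The means were 4.25 ± 1.62 CPM and 4.68 ± 0.804 CPM, and the log2 difference was -0.19 (95% interval -0.82 to 0.44, adjusted p = 0.60 with limma, adjusted p = 0.75 with the block); with quantile normalization it was 0.07. Of its exon bases, 17.1% overlap Pklr on the other strand, and whether reads were counted by strand is not given in the sources used here.

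The ratio of Hcn2 to Hcn3 on the log2 scale was -1.48, -2.28, -2.39 and -0.42 in TRAP and -2.08, -1.47, -1.51 and -1.96 in INPUT. The means were -1.64 ± 0.91 and -1.76 ± 0.31 (SD, n = 4), a difference of 0.11 (exact two-sided permutation p = 0.91), with 2 pools up and 2 down. The spread in TRAP was wider than in INPUT.

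Per kb of exon, Hcn3 was the larger part of the sum of Hcn2 and Hcn3, at 69.5 ± 13.6% in TRAP and 72 ± 4.28% in INPUT (SD, n = 4), with Hcn2 at 30.5 ± 13.6% and 28.0 ± 4.28%. The Hcn2 share was 31.7, 21.1, 19.9 and 49.3% in TRAP and 23.5, 31.9, 31.3 and 25.1% in INPUT. In VP2.11 TRAP the subunits had nearly the same share, and in the other 7 libraries Hcn3 held 68.1 to 80.1% of the sum. Both were low, with levels per kb in TRAP of 0.439 ± 0.19 CPM for Hcn2 and 1.02 ± 0.389 CPM for Hcn3, at percentiles 8.93 and 21.5 of the genes tested.

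**Figure D3:**
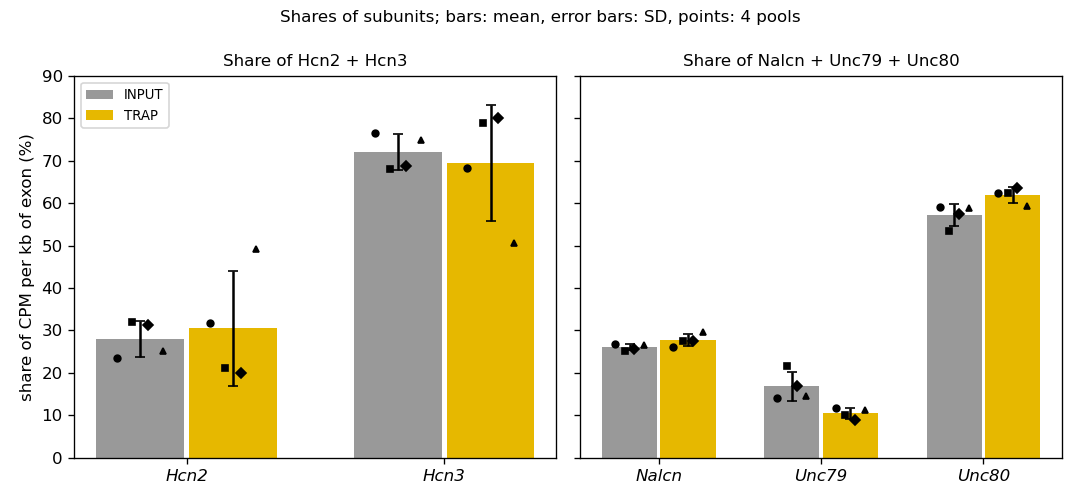
Shares of CPM per kb of exon in percent (vertical axis) of Hcn2 and Hcn3 and of the leak channel genes, as mean bars with SD over 4 libraries and a point for each pool. Hcn2 stands at 28.0% in INPUT and 30.5% in TRAP, Unc79 at 16.7% and 10.4%, and Hcn3 and Unc80 hold the largest shares in both fractions.

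Pex5l, the gene of TRIP8b (chr3:32949408-33143247, minus strand; exons of 8.8 kb in all), had a higher level per kb of exon than Hcn2 and Hcn3, in both fractions. Its level was 5.08, 5.48, 5.08 and 4.61 log2 CPM in TRAP and 5.46, 5.00, 5.43 and 5.46 log2 CPM in INPUT. It was lower in TRAP in 3 pools and higher in VP2.2, the same pattern as Hcn3. The means were 34.1 ± 8.21 CPM and 40.8 ± 5.85 CPM, and per kb of exon 3.86 ± 0.929 and 4.61 ± 0.662 CPM. The log2 difference was -0.28 (95% interval -0.70 to 0.15, adjusted p = 0.26 with limma, adjusted p = 0.42 with the block). It passed the threshold without VP2.2 (-0.53, limma, adjusted p = 0.026, adjusted p = 0.083 with the block), with array weights (-0.32, adjusted p = 0.036) and with the trend on length taken out (-0.60, adjusted p = 0.03, adjusted p = 0.096 with the block), but in none of these with the block. The log2 ratio of Pex5l to Hcn2 was 4.68 ± 0.89 in TRAP and 4.88 ± 0.30 in INPUT (difference -0.20, exact permutation p = 0.69).

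The leak channel gene was also set against the HCN subunit Hcn2. The log2 ratio of Hcn2 to Nalcn was -5.26, -5.69, -6.17 and -5.05 in TRAP and -4.88, -3.93, -4.45 and -4.87 in INPUT. It was lower in TRAP in 4 of 4 pools, by -1.01 on average, with an exact permutation p of 0.029 (0.057 adjusted over the 6 ratios). The exons of Nalcn are the longer ones, and this ratio was not corrected for the trend on length. With that trend taken out of each gene, the log2 difference of Hcn2 was 0.09 and that of Nalcn 0.42. Before, they were -0.08 and 0.94, so much of the gap between the 2 genes went with the trend.

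**Figure D4:**
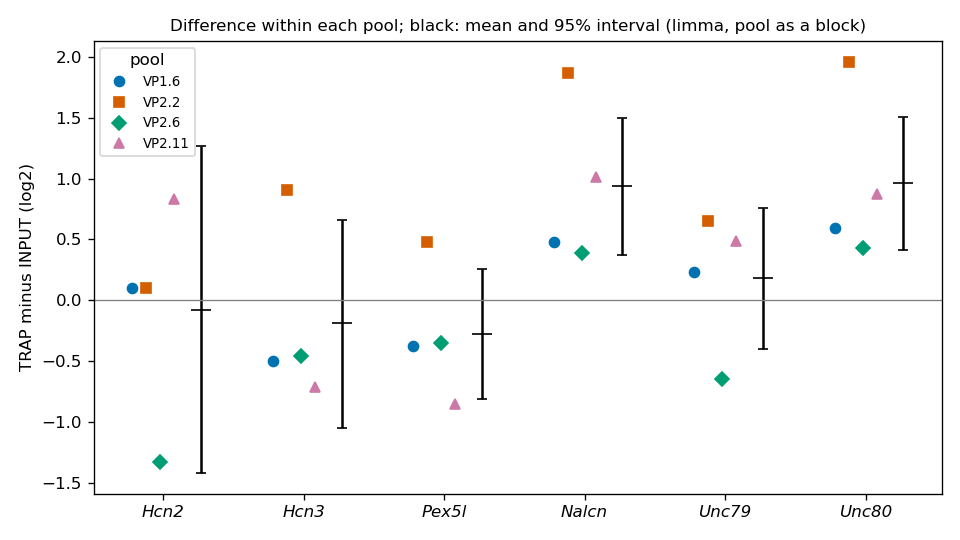
Log2 difference between TRAP and INPUT (vertical axis) of the 6 channel genes in each pool, with the mean and its 95% interval from limma with the pool as a block in black. The interval lies above 0 for Nalcn (0.37 to 1.50) and Unc80 (0.41 to 1.51) and crosses 0 for the other 4 genes.

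Proteins that bind HCN channels or control their level form the first of 3 further lists. Of 9 genes, 6 had values (not Kcne2, Mrvi1 or Cav3), and 3 were called higher and 0 lower with the fraction alone, 2 higher and 0 lower with the block. Over all genes tested, 23.2% were called higher and 24.8% lower with the fraction alone, and 15.4% and 16.8% with the block. At an unadjusted p under 0.05 limma also gave 0 lower in both fits. Nedd4l, an E3 ubiquitin ligase that acts on many channels, was at 184 ± 12.6 CPM in TRAP and 119 ± 19.3 CPM in INPUT, a log2 difference of 0.64 (limma, adjusted p = 0.0044, adjusted p = 0.033 with the block) and of 0.05 once the trend on length was taken out (adjusted p = 0.88 with the block). Its call with the block was lost whichever pool was left out (limma, adjusted p = 0.051 to 0.15), at log2 differences of 0.51 to 0.73. Grasp, which encodes the scaffold tamalin, was at 14.4 ± 5.67 and 7.29 ± 1.72 CPM, a log2 difference of 0.93 (adjusted p = 0.019, adjusted p = 0.044 with the block), and lost the call in both fits without VP1.6, VP2.6 or VP2.11, at log2 differences of 0.69 to 1.01. Lrmp, whose protein binds HCN4, was below 1 CPM in INPUT and passed the filter on low values only through TRAP, where it is higher, so its call is no support for the count. It was low, at 1.66 ± 1.00 and 0.563 ± 0.136 CPM, with a log2 difference of 1.43 (adjusted p = 0.029, adjusted p = 0.15 with the block), not called whichever pool was left out (1.11 to 1.73). Kctd3 (0.31), Magi2 (0.25) and Flna (-0.34) did not pass in either fit. The median log2 difference of the 6, which takes in Lrmp, was 0.47, against -0.05 over all genes tested. It was not corrected for exon length. Nedd4l and Magi2 (exons of 17.7 and 11.3 kb) fall in the tenth of genes with the longest exons, where the median was 0.49.

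Of 7 genes for proteins that bind or act through NALCN, 5 had values (not Fam155b or Casr), and 0 were called higher and 1 lower in both fits. The shares over all genes tested were 23.2% higher and 24.8% lower, and 15.4% and 16.8% with the block. At an unadjusted p under 0.05 limma gave 1 higher (Src) with the fraction alone and 0 with the block. The median log2 difference of the 5 was 0.19. Fam155a, the gene of the extracellular NALCN subunit also named NALF1, was at 29.5 ± 3.27 CPM in TRAP and 26.1 ± 3.05 CPM in INPUT, a log2 difference of 0.17 (limma, adjusted p = 0.34, adjusted p = 0.61 with the block). The receptors Tacr1 and Chrm3, which can activate NALCN through Src kinases, had log2 differences of 0.19 and 0.28 and did not pass. Src had 0.35 (limma, adjusted p = 0.09, adjusted p = 0.36 with the block). Fyn, a kinase of the same family that oligodendrocytes also use, was lower in TRAP in 4 of 4 pools, at 54.0 ± 6.18 against 91.3 ± 9.78 CPM, a log2 difference of -0.76 (limma, adjusted p = 0.0013, adjusted p = 0.015 with the block), and the call with the block was lost without VP1.6 or VP2.6 (log2 differences of -0.64 and -0.72, adjusted p = 0.12 and 0.086). Of the 5 oligodendrocyte markers 4 were called lower in both fits, while Mag was at 105 ± 19.7 CPM in TRAP and 69.7 ± 17.2 CPM in INPUT (log2 difference 0.61, limma, adjusted p = 0.035, adjusted p = 0.072 with the block), and their part in the Fyn value was not tested.

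Adenylyl cyclases make the cyclic AMP that gates HCN channels. Of 9 genes, 8 had values (not Adcy4), with 2 called higher and 1 lower with the fraction alone, and 1 higher and 1 lower with the block. These counts do not stand apart from the shares over all genes tested (23.2% higher and 24.8% lower, 15.4% and 16.8% with the block). The median log2 difference of the 8 was 0.50. Adcy1, a calcium-stimulated cyclase, was at 51.6 ± 12.4 CPM in TRAP and 29.2 ± 10.3 CPM in INPUT, a log2 difference of 0.88 (limma, adjusted p = 0.026, adjusted p = 0.039 with the block), which fell to 0.45 without VP2.2 (adjusted p = 0.067, adjusted p = 0.16 with the block) and to 0.41 with the trend on length taken out (adjusted p = 0.27). The call with the fraction alone was also lost without VP1.6 (limma, adjusted p = 0.10) or VP2.6 (adjusted p = 0.064). Adcy5, the main cyclase of striatal neurons, was lower in 4 of 4 pools, at 72.8 ± 18.1 against 148 ± 22.7 CPM, a log2 difference of -1.04 (adjusted p = 0.0012, adjusted p = 0.0039 with the block). All 5 striatal markers were lower too, and their part in the Adcy5 value was not tested. Adcy9 had a log2 difference of 0.56 (adjusted p = 0.024, adjusted p = 0.12 with the block), lost with the fraction alone without VP1.6, VP2.2 or VP2.6 (adjusted p = 0.078 to 0.11), and Adcy2, Adcy3, Adcy6, Adcy7 and Adcy8 did not pass in either fit, with log2 differences from 0.27 to 1.33.

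**Figure D5:**
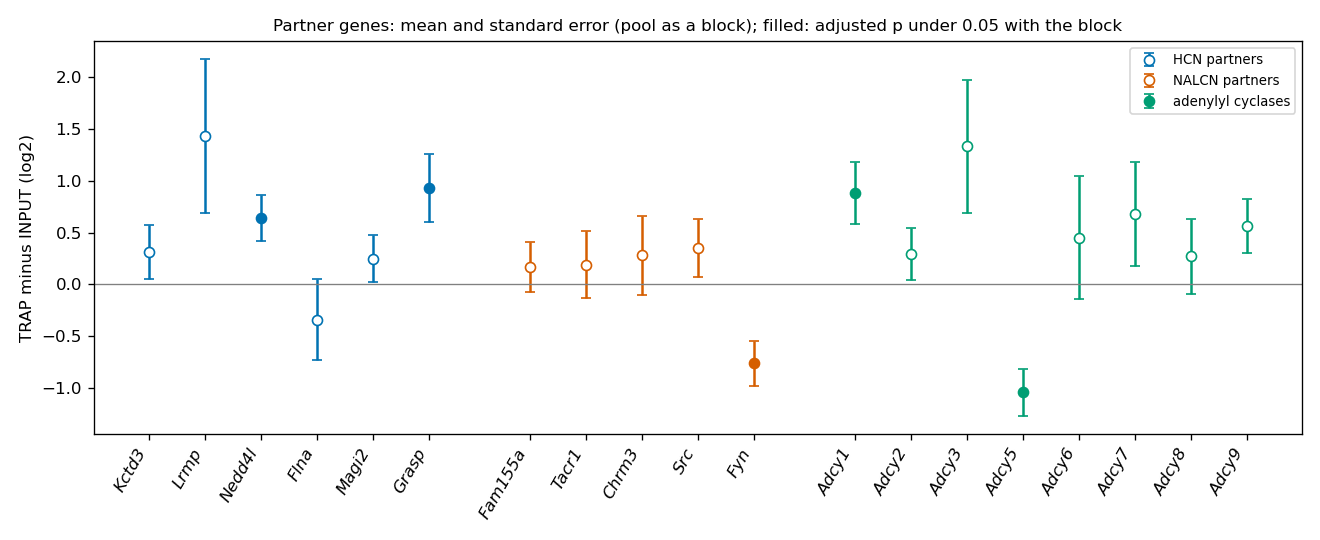
Log2 difference between TRAP and INPUT (vertical axis) of the 19 genes with values in 3 lists of partners, as means with standard errors from limma with the pool as a block, filled where the adjusted p of that fit is under 0.05. Fyn and Adcy5 are the filled points below 0, and Nedd4l, Grasp and Adcy1 those above it.

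The genes most like Nalcn and Hcn2 over the 8 libraries were ranked by Pearson's r of log2 CPM, as a description, since the libraries share pools and the fraction. For Nalcn they were Vldlr (0.999), Chm (0.998), Lrrc40 (0.998), Scai (0.998) and Parg (0.997). Unc80 had 0.993, Unc79 0.671 and Pex5l -0.174. For Hcn2 they were Pomgnt2 (0.996), Fzd6 (0.984), Nubpl (0.984), Zfp521 (0.975) and Lrrk1 (0.975). Unc79, at 0.815, was the channel gene nearest to Hcn2, and both were lower in TRAP than in INPUT in VP2.6 alone.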

How the data were processed

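RNA-seq libraries of TRAP and INPUT from 4 pools (8 libraries) were analysed. Per the methods of the study, the authors aligned reads with STAR 2.5.1a to the mouse assembly GRCm38 of Ensembl release 76, counted uniquely mapped reads for each gene, scaled libraries by TMM, left out low genes and deposited log2 CPM per gene and library. INPUT is what the labels name Input; the methods also name an unbound fraction. The columns of the authors' own comparison (fold changes, limits, p-values) were not used, and 0 other columns of per-sample values were left out. Of 14398 entries, 45 repeated a gene, which left 14353 genes, and tests ran on the 14249 of them above 1 CPM in 3 or more libraries.

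The log2 values were compared between TRAP and INPUT by limma 3.58.1 in R 4.3.3 (lmFit, eBayes with a trend), with Benjamini-Hochberg adjustment over all genes tested and a threshold of 0.05. Pools pair the libraries, since the labels give both the same pool and both come from 1 homogenate. Same-pool deviations from the fraction means correlated at -0.755 to -0.503 across genes, a structure the deposited values already hold. A fit that takes the pool as a block is therefore given beside the fit with the fraction alone. The study's methods name no block either, but they weighted libraries by quality, which the fit with the fraction alone did not. Both fits were also run on simulated data (14249 genes, 200 changed by 2 or 3 log2 units). There same-pool deviations were made opposite more strictly than in the deposited values, and fewer genes were changed. Fitting the fraction alone called 192 of the changed genes along with 408 unchanged ones, and adding the block called 145 and 6. Of the unchanged genes, 17.4% had an unadjusted limma p under 0.05 with the fraction alone and 5.17% with the block. The fit with the fraction alone was thus too liberal in this simulation. These counts and shares do not estimate the false calls in the deposited values. CPM means are of 2 to the power of the deposited values. Ratios were tested by exact permutation in Python 3.11.15. Exon lengths and positions came from GENCODE M21 (GRCm38), and promoters from RefSeq.

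Named are the 7 genes, 3 lists of partner genes, the 5 genes most like Nalcn and Hcn2, cell type markers, and Slc17a6. These genes and lists were chosen with earlier results of these data known. One gene of the first list is not reported here. Depth is a library size after scaling, estimated from steps of whole reads, and not a count of reads sequenced. It was 12.8 M (TRAP) and 38.7 M (INPUT) in VP2.2, where 85.1% of low genes lay on a step. In VP2.6 it was 12.3 M and 24.4 M (96.0%). Numbers of reads given for Hcn2 are estimates from it. It is unknown in VP1.6 and VP2.11, whose values are rounded, and no count test was run. Alternatives were the block, array weights, other scalings, log2(CPM + 1), other filters, the trend on exon length, other lengths for shares and leaving out each pool.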

Additional observations from a re-analysis of the deposited data

Results flagged for a closer look

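Of 26 sets of 4 libraries examined (13 genes named above in each fraction), 5 held a library standing apart from the other 3. Chance would give about 1.3 if the sets were independent, which they are not. Nalcn and Unc80 had r = 0.993 over the libraries, and they and Pex5l stood apart in the same library, so the 2 counts cannot be compared as a test. Nalcn and Unc80 in INPUT of VP2.2 were at 4.27 and 5.33 log2 CPM, with the other pools at 5.17 to 5.28 and 6.29 to 6.41. Pex5l in the same library was at 5.00 log2 CPM, with the others at 5.43 to 5.46. Hcn2 in INPUT of VP2.6 was at 0.83 log2 CPM, with the others at 0.30 to 0.35. In TRAP of the same pools, Hcn2 was at its lowest (-0.51 log2 CPM). Pex5l and Unc80 were at their highest there (5.48 and 7.29), and Nalcn was at 6.14. Same-pool deviations ran opposite across genes (correlations of -0.755 to -0.503), so these INPUT values are not separate from the TRAP values of their pool. Lrmp in TRAP of VP2.11 was at 1.66 log2 CPM, with the others at 0.08 to 0.32.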

How the results depend on the processing

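The log2 differences do not change with the replicate block (the pool), only their p-values: among the channel and partner genes the block ended the calls of Lrmp (1.43) and Adcy9 (0.56), among the markers those of C1qa (-1.42), Csf1r (-0.49), Chat (0.70) and Mag (0.61), and it changed no other call in these lists, and the members called stayed 2 higher and 0 lower. Taking out the trend on exon length left 0 members higher, with the replicate block or without it, and 1 lower (Pex5l) without it. Array weights also gave 1 lower, and leaving out pools gave 0 to 1. Unc79 reversed to -0.15 with array weights (-0.07 with the block) and -0.33 with the trend taken out, Hcn2 to 0.65 with quantile normalization, 0.09 with the trend taken out and 0.34 without VP2.6 (range over pools left out, -0.38 to 0.34), and Hcn3 to 0.07 with quantile normalization. The cause was not tested.

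With sign flips within pools (the block for ratios) the p was 0.125, the smallest possible, for Unc79 to Nalcn (-0.76), Unc80 to Unc79 (0.78) and Hcn2 to Nalcn (-1.01). Without each pool in turn these log2 ratios ran from -0.92 to -0.60, 0.61 to 0.93 and -1.29 to -0.76, with an exact p of 0.10, the smallest for 3 against 3. Hcn2 to Hcn3 ran from -0.36 to 0.44, with reversed values of -0.05 and -0.36, and Pex5l to Hcn2 from -0.59 to 0.29. Per kb of the longest transcript the TRAP shares became 40.9% (Nalcn), 12.0% (Unc79) and 47.0% (Unc80). Apart from the settings named here and in the report, Nalcn and Unc80 kept their direction and their calls under every setting run. Hcn2 rested on few reads where depth could be estimated (about 8.6 to 49).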
